A study of Homo sapiens with 6 samples.

Results

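The ERBB receptors and the EGF-family ligands that bind them were examined at the mRNA level in the human hepatocellular carcinoma (HCC) cell line Hep3B after knockdown of DAGLA. The members were chosen by name, with earlier results of these data known, and make up 10 of the 29908 genes in the expression table. They are 3 receptors (EGFR, ERBB2 and ERBB3), 6 ligands (AREG, EREG, HBEGF, TGFA, BTC and NRG1) and the feedback inhibitor ERRFI1. DAGLA, diacylglycerol lipase alpha, is the enzyme that makes the endocannabinoid 2-AG. In Hep3B-KD cells a lentivirus expressed a short hairpin RNA against DAGLA (labelled shDAGLA), and Hep3B-Con cells carried a control lentivirus (labelled shControl, elsewhere described as an empty vector). Both were transduced at a multiplicity of infection of 5 and kept under puromycin to obtain stable cells, with 3 libraries for each group. A single hairpin in 1 cell line was sequenced, so the effect of the hairpin's sequence and the effect of losing DAGLA cannot be told apart. If the control was an empty vector, the effect of carrying any hairpin cannot be separated from them. The same holds for other differences between the transduced cell populations. The submitters call the libraries biological replicates, but no source used here says that they came from separate transductions, so the p-values measure the spread between these libraries.

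ERBB receptors are tyrosine kinases at the cell surface. EGFR binds AREG, EREG, HBEGF, TGFA and BTC, ERBB3 binds neuregulins and has weak kinase activity, and ERBB2 has no known ligand of its own and serves as the preferred partner of the others. The ligands are made as membrane-anchored precursors that proteases cut free, and receptor dimers then feed the RAS-RAF-MEK-ERK and PI3K/AKT cascades. In the liver EGFR is abundant on hepatocytes and its ligands are known for their part in regeneration, while ERRFI1 (also called MIG6) binds the EGFR kinase domain and limits its signal.

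The libraries held between 15861039 and 17572714 reads in genes. The targeted gene DAGLA averaged 9.28 FPKM in control libraries (SD 0.228, n = 3) and 4.62 FPKM after knockdown (SD 0.164, n = 3), which is a log2 difference of -0.99 (limma, adjusted p = 5.25e-06). FPKM are fragments per kilobase of exon, scaled to the reads of the library. The exon length is that of all annotated exons of a gene merged, which can exceed the length of the mRNA. Levels and ratios of different genes therefore depend on that length and are not numbers of transcripts. All 8 hepatocyte markers (AFP, ALB, APOA1, APOB, TTR, SERPINA1, GPC3 and HNF4A) were expressed in both groups. Their summed level was 2699 to 2745 FPKM in Hep3B-Con and 4390 to 4413 FPKM in Hep3B-KD libraries, and its part in the results below was not tested. The 4 fibroblast markers summed to 3.45 to 3.74 FPKM in Hep3B-Con and 2.44 to 2.48 FPKM in Hep3B-KD, the 3 endothelial markers to at most 0.385 FPKM, and the 2 leukocyte markers in the table to at most 1.32 FPKM.

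The hairpin used in Hep3B-KD cells and its possible matches among the members are shown first. The capitals mark the letters that pair with bases 2 to 8 of the guide strand, its seed (in the guide itself, the seed).
shDAGLA target: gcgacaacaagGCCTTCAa
guide strand: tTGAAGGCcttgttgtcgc
EGFR 3′ UTR, chr7:55206137-55206165, plus strand: gatccaagaagGCCTTCAtggccccagca
HBEGF 3′ UTR, chr5:140334114-140334142, minus strand: aaaataccagaGCCTTCAagtgccaaaca
TGFA 3′ UTR, chr2:70450699-70450727, minus strand: gccttttgtggGCCTTCAaaactctgtca
ERRFI1 3′ UTR, chr1:8015106-8015134, minus strand: tgtactcgactGCCTTCAttctgagtcac
The positions and transcripts are those of GENCODE release 29 on GRCh38, and each of these 4 genes holds 1 match in the 3′ UTR of the transcript examined. No match was found in the 3′ UTRs of ERBB2, ERBB3, AREG, EREG, BTC or NRG1. Of 11188 tested genes with a 3′ UTR of at least 50 bases, 1627 (14.5%) held the 7 letters GCCTTCA. Their median log2 fold change was -0.038, against 0.11 for the genes without them. A match of 7 letters is a description of the sequence and not evidence that the guide acts there.

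To examine how the receptor and ligand transcripts responded to DAGLA knockdown, Hep3B-KD was compared with Hep3B-Con. EGFR and ERBB3 rose, and ERBB2, AREG, EREG and ERRFI1 fell, whereas HBEGF and BTC did not pass the test and TGFA and NRG1 lay below the level at which genes were tested (a mean of 0.5 FPKM over the 6 libraries). Thus 8 of 10 members were tested, of which 2 were higher and 4 were lower at an adjusted p under 0.05. Across all 14221 genes tested, 36.1% were higher and 23.8% were lower at that threshold, so that 59.9% of genes changed in one direction or the other and a call alone sets no member apart. At a change of at least 2-fold, 1 member was higher (EGFR) and 2 were lower (AREG and EREG), where 5.89% of all genes were higher and 2.94% were lower. The libraries of both groups did not overlap for 6 of the 8 members tested, as for 66.9% of all genes tested. The median log2 fold change was -0.42 over the 8 members and 0.11 over all genes tested. Centring each library on its median took 0.10 off every log2 fold change, which left EGFR just short of 2-fold at 0.99 and kept ERBB3 at 0.79, ERBB2 at -0.96, AREG at -2.10, EREG at -1.17 and ERRFI1 at -0.64. Under that centring the genes past 2-fold were 53.7% higher ones, against 66.7% without it and 44.8% after quantile normalization.

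**Figure D1:**
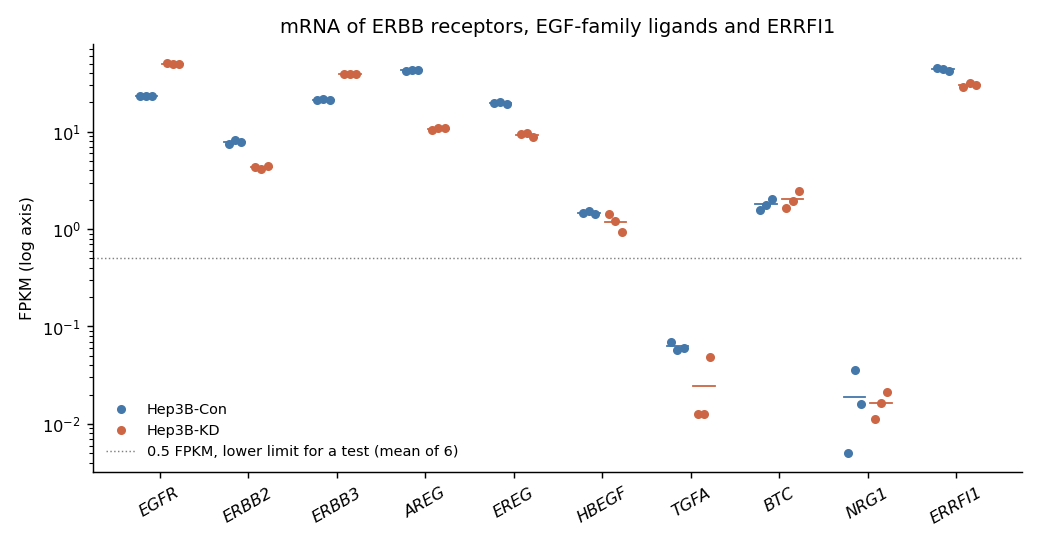
FPKM (log axis) of the 10 members in each of the 3 Hep3B-Con (blue) and 3 Hep3B-KD (orange) libraries. Points are libraries, short lines are group means, and the dotted line is the mean of 0.5 FPKM below which genes were not tested. EGFR and ERBB3 sit higher, and ERBB2, AREG, EREG and ERRFI1 lower, in every Hep3B-KD library, whereas the groups overlap for HBEGF, BTC and NRG1.

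Among the receptors, EGFR was the one with the largest rise. EGFR (ENSG00000146648, chromosome 7, 55019021 to 55211628, plus strand) measured 23.5, 23.3 and 23.2 FPKM in the Hep3B-Con libraries and 50.2, 49.2 and 49.9 FPKM in the Hep3B-KD libraries. All 3 Hep3B-KD values lay above every Hep3B-Con value, and the spread within a group was far below the distance between groups. The log2 fold change was 1.09 (SE 0.0206, limma adjusted p = 2.17e-07), and 818 of the 14221 genes tested had a larger one. An antisense gene, EGFR-AS1, shares 186 exon bases with EGFR, which is 1.49% of its exon length. EGFR-AS1 was at 9.45, 9.51 and 7.84 FPKM in Hep3B-Con and at 6.18, 6.28 and 5.67 FPKM in Hep3B-KD libraries, lower where EGFR was higher. Whether reads were counted by strand is not given in the sources used here, so reads of the shared bases cannot be assigned to one gene.

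ERBB3 (ENSG00000065361, chromosome 12, 56076799 to 56103505, plus strand), the kinase-impaired receptor that recruits PI3K once it is phosphorylated, measured 21.0, 21.6 and 20.9 FPKM in Hep3B-Con and 39.5, 39.4 and 39.2 FPKM in Hep3B-KD libraries. Its groups did not overlap either, and the log2 fold change was 0.89 (SE 0.0231, adjusted p = 6.59e-07). ERBB2 (ENSG00000141736, chromosome 17, 39687914 to 39730426, plus strand), the receptor without a ligand of its own, went the other way. Its values were 7.50, 8.26 and 7.81 FPKM in Hep3B-Con and 4.32, 4.11 and 4.47 FPKM in Hep3B-KD libraries. The log2 fold change was -0.85 (SE 0.0547, adjusted p = 2.25e-05), and every Hep3B-KD library was below every Hep3B-Con library. ERBB2 shares 571 exon bases (5.53% of its own) with the opposite-strand gene MIEN1, which ranged from 3.93 to 5.04 FPKM in Hep3B-Con and from 3.88 to 4.34 FPKM in Hep3B-KD libraries. It shares 194 bases with PGAP3, also on the opposite strand. PGAP3 ranged from 6.98 to 7.84 FPKM in Hep3B-Con and from 5.91 to 6.92 FPKM in Hep3B-KD libraries, lower as ERBB2 was. Reads of these shared bases cannot be assigned to one gene either.

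The make-up of the receptor FPKM sum therefore differed between the groups. The 3 receptors together reached 52.4 ± 0.692 FPKM (SD, n = 3) in control cells and 93.4 ± 0.644 FPKM (SD, n = 3) in knockdown cells. ERBB2 made up 15.0 ± 0.554% of this sum in Hep3B-Con and 4.61 ± 0.170% in Hep3B-KD, while EGFR went from 44.6 ± 0.703% to 53.3 ± 0.171% and ERBB3 from 40.4 ± 0.181% to 42.1 ± 0.318% (SD, n = 3 each). The ratio of EGFR to ERBB2 FPKM was 2.98 ± 0.157 in control cells (SD, n = 3), against 11.6 ± 0.399 after knockdown (SD, n = 3). By FPKM, EGFR stood above ERBB3 and ERBB3 above ERBB2 in each of the 6 libraries. EGFR exceeded ERBB3 by a factor of 1.08 to 1.12 in Hep3B-Con and 1.25 to 1.27 in Hep3B-KD libraries. The exon lengths used, 12521 bases for EGFR, 9039 for ERBB3 and 10321 for ERBB2, are the same in every library. Agreement between libraries therefore cannot show the order of transcript numbers. None of these sums and shares overlapped between groups. With 3 libraries against 3, an exact two-sided permutation test of such a value cannot give a p below 0.1.

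**Figure D2:**
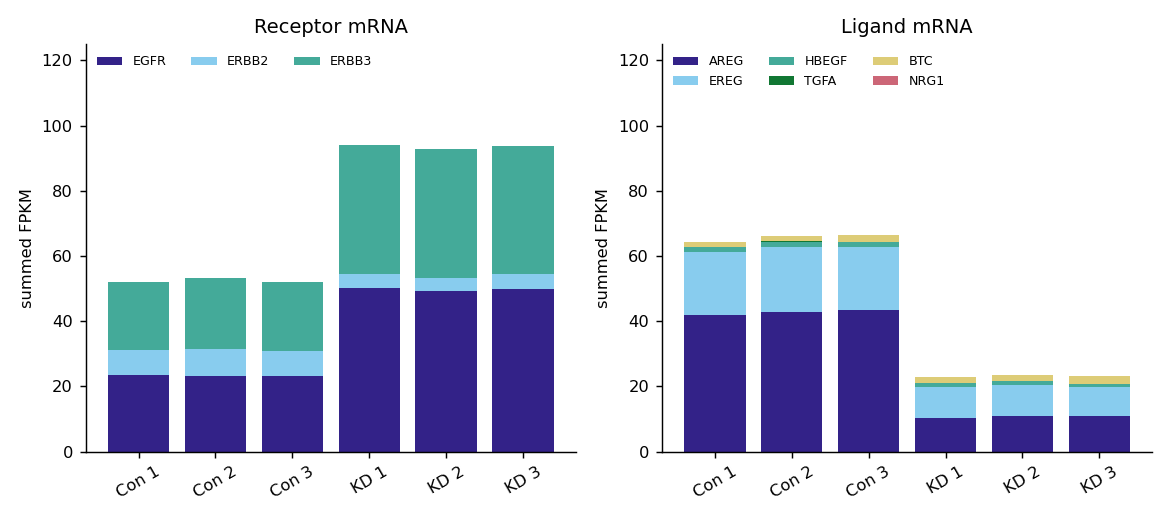
Stacked FPKM of the 3 receptors (left) and the 6 ligands (right) in each library, on the same axis from 0. The receptor sum is higher in every Hep3B-KD library (means 52.4 and 93.4 FPKM), and the ligand sum is lower (means 65.7 and 23.2 FPKM). TGFA and NRG1 are too low to be seen.

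Of the ligands, AREG showed the largest fall. AREG (amphiregulin, a low-affinity EGFR ligand, ENSG00000109321, chromosome 4, 74445134 to 74455009, plus strand) measured 41.8, 42.8 and 43.4 FPKM in Hep3B-Con and 10.3, 10.8 and 10.9 FPKM in Hep3B-KD libraries. The groups were separated by a gap several times wider than the spread within either of them. The log2 fold change was -1.99 (SE 0.0318, adjusted p = 1.25e-07), and 94 of the 14221 genes tested fell further. Behind these values stood 1191 to 1225 reads in each Hep3B-Con library but 269 to 297 in each Hep3B-KD library. The older build GRCh37, which the submitters' notes name, carried a near-identical copy of this gene, and how reads of the pair were assigned is not given in the sources used here.

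EREG (epiregulin, which also binds EGFR, ENSG00000124882, chromosome 4, 74365143 to 74388751, plus strand) was at 19.5, 20.1 and 19.4 FPKM in Hep3B-Con and at 9.43, 9.60 and 8.88 FPKM in Hep3B-KD libraries. Here too the groups did not overlap, and the log2 fold change was -1.07 (SE 0.0390, adjusted p = 2.44e-06). The ratio of AREG to EREG FPKM was 2.17 ± 0.0617 in control cells (SD, n = 3), and it shrank to 1.15 ± 0.0685 after knockdown (SD, n = 3). The range of this ratio did not overlap between groups.

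HBEGF (heparin-binding EGF-like growth factor, ENSG00000113070) was far lower, at 1.47, 1.54 and 1.41 FPKM in Hep3B-Con and 1.44, 1.20 and 0.939 FPKM in Hep3B-KD libraries. The highest Hep3B-KD library lay within the Hep3B-Con range and the other two lay below it. The log2 fold change was -0.30, with a 95% interval from -0.69 to 0.082 (adjusted p = 0.148). The call turned on 1 library and on the scaling, since it was -0.44 (adjusted p = 0.0479) without Hep3B-KD replicate 1 and -0.56 (adjusted p = 0.0230) after quantile normalization. BTC (betacellulin, which binds EGFR and ERBB4, ENSG00000174808) was at 1.58, 1.78 and 2.05 FPKM in Hep3B-Con and 1.66, 1.95 and 2.48 FPKM in Hep3B-KD libraries, with overlapping groups. Its log2 fold change of 0.15, with a 95% interval from -0.24 to 0.55 (adjusted p = 0.461), turned to -0.084 after quantile normalization.

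TGFA and NRG1 were close to the limit of detection. TGFA (transforming growth factor alpha, a high-affinity EGFR ligand, ENSG00000163235) had 6, 5 and 5 reads in Hep3B-Con and 1, 1 and 4 reads in Hep3B-KD libraries, and NRG1 (neuregulin 1, a ligand of ERBB3 and ERBB4, ENSG00000157168) had 1, 7 and 3 against 2, 3 and 4 reads. When the lower limit was dropped and 29908 genes were tested, the adjusted p was 0.207 for TGFA and 0.937 for NRG1, so no difference was detectable at this depth.

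Summed over the 6 ligands, the level was 65.7 ± 1.10 FPKM in control cells (SD, n = 3), compared with 23.2 ± 0.365 FPKM after knockdown (SD, n = 3). AREG made up 65.0 ± 0.474% of the ligand FPKM sum in Hep3B-Con and 45.9 ± 0.854% in Hep3B-KD, whereas EREG made up 29.9 ± 0.632% and 40.1 ± 1.63% (SD, n = 3 each). The ratio of the ligand to the receptor FPKM sum was 1.25 ± 0.0203 in Hep3B-Con and 0.249 ± 0.00558 in Hep3B-KD cells (SD, n = 3). It is not a ratio of ligands to the receptors they bind. AREG and EREG, 94.9% of the ligand sum in Hep3B-Con and 85.9% in Hep3B-KD, bind EGFR, whereas the receptor sum also holds ERBB3 and ERBB2. The groups did not overlap in any of these measures. By FPKM, AREG stayed above EREG, and both above BTC and HBEGF, in each of the 6 libraries. BTC was above HBEGF in every library as well, but in Hep3B-Con cells the highest HBEGF value of 1.54 FPKM came close to the lowest BTC value of 1.58 FPKM.

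**Figure D3:**
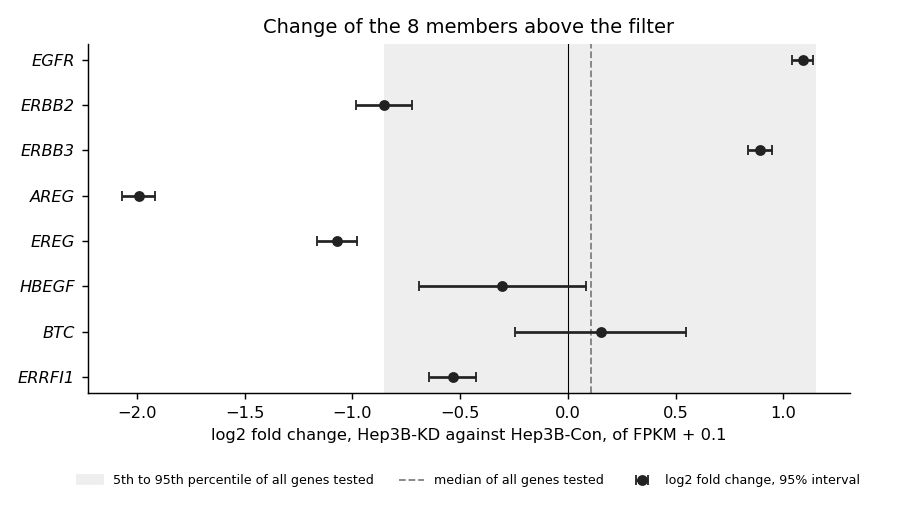
Log2 fold change of FPKM + 0.1 (Hep3B-KD against Hep3B-Con) of the 8 members tested, with 95% intervals from limma. The grey band spans the 5th to the 95th percentile of all 14221 genes tested (-0.85 to 1.15) and the dashed line is their median of 0.11. AREG at -1.99 lies farthest from the band, EREG lies beyond its lower edge and ERBB2 on it, and EGFR and ERBB3 lie inside its upper part.

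AREG and EREG are neighbours. Together with EPGN and BTC they form a run of EGF-family genes that spans 486.2 kb of chromosome 4, with no other protein-coding gene of the table inside it (4 in all). EREG starts 80.0 kb before AREG on the same strand, EPGN starts 136.7 kb before it, and BTC starts 349.6 kb after it on the opposite strand. The pair that fell lies in the middle of the run. EPGN (epigen) had 0, 1 and 0 reads in Hep3B-Con and 5, 4 and 0 reads in Hep3B-KD libraries, too few for a comparison. The nearest protein-coding genes on either side were MTHFD2L, at a log2 difference of 0.24 (adjusted p = 0.191), and PARM1, at 0.092 (adjusted p = 0.561). These neighbours were chosen by position after the data had been seen.

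**Figure D4:**
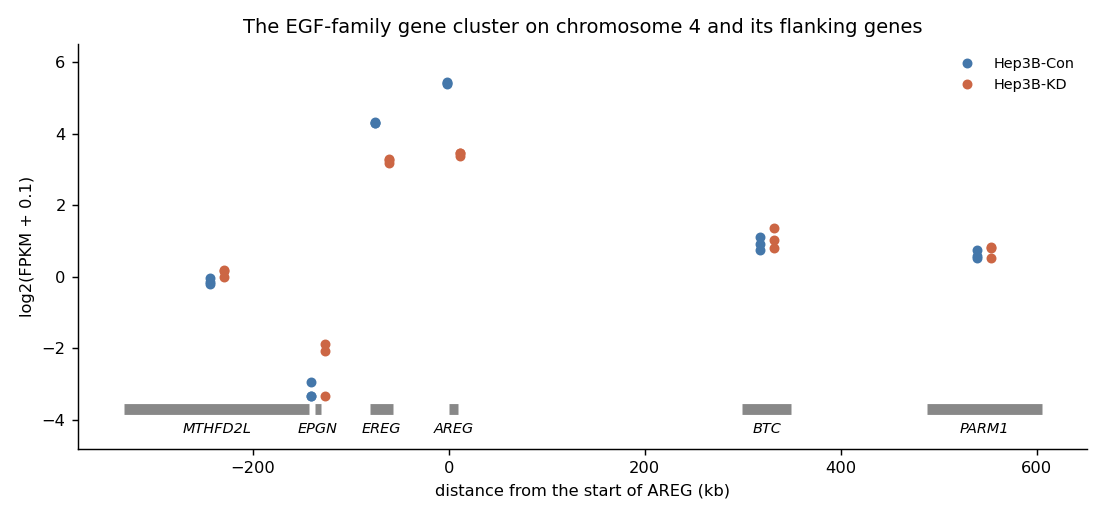
Log2(FPKM + 0.1) of the EGF-family genes of chromosome 4 and of their flanking genes in each library, placed by distance (kb) from the start of AREG. Grey bars are the genes. AREG and EREG are lower in all 3 Hep3B-KD libraries, while the groups overlap for EPGN, BTC and PARM1 and lie close together for MTHFD2L.

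Because AREG and EREG fell together, their promoters are shown, 250 bases before to 50 bases after the start as given by RefSeq on GRCh38.p14. The capitals mark matches to 3 motifs, searched on both strands. The first is the cAMP response element, TGACGTCA. The second is the motif of AP-1 dimers, TGANTCA. The last is the motif of TEAD factors, the DNA-binding partners of YAP, which reads GGAATG.
AREG promoter, chr4:74444886-74445185, plus strand: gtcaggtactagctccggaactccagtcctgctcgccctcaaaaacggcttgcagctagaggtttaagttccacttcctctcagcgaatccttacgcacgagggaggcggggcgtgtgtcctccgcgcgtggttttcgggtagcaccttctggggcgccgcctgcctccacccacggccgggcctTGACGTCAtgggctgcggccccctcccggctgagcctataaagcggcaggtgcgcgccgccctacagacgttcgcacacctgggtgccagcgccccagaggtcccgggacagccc
EREG promoter, chr4:74364895-74365194, plus strand: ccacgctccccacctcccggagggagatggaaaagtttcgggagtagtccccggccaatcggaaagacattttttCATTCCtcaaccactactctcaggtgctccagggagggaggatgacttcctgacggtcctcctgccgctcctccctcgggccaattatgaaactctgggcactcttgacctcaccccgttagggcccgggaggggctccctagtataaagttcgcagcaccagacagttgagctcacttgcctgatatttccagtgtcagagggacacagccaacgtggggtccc
The AREG promoter holds 1 cAMP response element, which begins at position -65 from the start and is found in 1.85% of 35116 promoters of the same length. The EREG promoter holds 1 TEAD match, which begins at position -175, a motif found in 14.0% of promoters. No motif was shared by both. Promoters were found for 8 of the 10 members. Those of HBEGF, TGFA, BTC and ERRFI1 and the first of the EGFR promoters held none of the 3 motifs. The second EGFR promoter (chr7:55109589-55109888), which lies within the gene, held 1 TEAD and 2 AP-1 matches. That of ERBB2 (chr17:39687844-39688143) held 1 AP-1 match, and starts that the promoter set lacks were not examined. AP-1 matches are found in 7.71% of all promoters. These letters are a description and do not show binding.

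The feedback inhibitor fell less than these ligands. ERRFI1 (ENSG00000116285, chromosome 1, 8004404 to 8026308, minus strand) measured 44.8, 44.3 and 41.6 FPKM in Hep3B-Con and 28.5, 31.4 and 30.3 FPKM in Hep3B-KD libraries. In Hep3B-Con cells it stood beside AREG at the top of the members by FPKM, where their ranges overlapped. Its groups did not overlap, and its log2 fold change was -0.53 (SE 0.0454, adjusted p = 7.99e-05).

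The remaining ERBB receptor and the other EGF-family ligands were low. ERBB4, the fourth receptor and a neuregulin receptor, was at 0.254, 0.168 and 0.231 FPKM in Hep3B-Con and at 0.329, 0.297 and 0.282 FPKM in Hep3B-KD libraries. NRG3 ranged from 0.154 to 0.337 FPKM in Hep3B-Con and from 0.0622 to 0.368 FPKM in Hep3B-KD. NRG4 had at most 4 reads and EGF at most 2 reads in any library. None of them reached the level at which genes were tested, and NRG2 was not analysed here.

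The other genes of the pathway were taken from 7 lists, chosen with earlier results of these data known. Their counts are therefore set beside those of all genes as a description only. The lists held 77 genes, 69 of which were tested. Of these, 24 rose, 29 fell and 16 did not pass the test, so that 76.8% were called, where 59.9% of all genes tested were (36.1% higher and 23.8% lower). By list, the share called was 77.8% for ligand shedding, 71.4% for adaptors and docking proteins and 63.6% for RAS-RAF-MEK-ERK. It was 75% for receptor endocytosis and degradation, 100% for RAS-ERK inhibitors and 77.8% for ERK-induced genes. The 69 genes had a median log2 fold change of -0.057 (0.11 over all genes tested). No listed gene rose by 2-fold or more and 9 fell by that much, where 5.89% of all genes tested rose and 2.94% fell by as much. Of these 9, NRAS and TIMP3 were short of 2-fold in some of the alternative fits. Of the 53 genes called, 45 kept their call under all 3 other scalings, and 1 of them, PEBP1, an inhibitor of RAF kinase signalling, turned direction, from -0.088 to 0.060 after quantile normalization.

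Among 9 tested genes of ligand shedding, 3 rose, 4 fell and 2 did not pass the test. RHBDF2 (iRhom2, which carries the protease ADAM17 to the cell surface) measured 10.8, 10.5 and 9.58 FPKM in Hep3B-Con and 4.40, 4.24 and 4.82 FPKM in Hep3B-KD libraries and so fell (-1.18 on the log2 scale, adjusted p = 1.38e-05). TIMP3, which inhibits ADAM17, fell as well (-1.10, adjusted p = 0.000515, and -0.61 with a pseudocount of 1). ADAM17 itself, the main sheddase of AREG, was at 3.80, 4.06 and 3.82 FPKM in Hep3B-Con and 2.14, 2.39 and 2.58 FPKM in Hep3B-KD libraries, a log2 fold change of -0.70 (adjusted p = 0.000354). The remaining gene that fell was ADAM15 (-0.35), and those that rose were ADAM10 (0.34), RHBDF1 (0.18) and ADAM9 (0.17). ADAM9 lost the call under centring. RHBDF1 lost it under centring and after quantile normalization, where it was at 0.0084. ADAM17 and the other listed genes without a 2-fold change are named here because of their values.

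Of 14 adaptor and docking genes, 5 rose, 5 fell and 4 did not pass the test. SHC1, the adaptor that links phosphorylated receptors to GRB2, measured 82.5, 84.7 and 83.5 FPKM in Hep3B-Con and 34.3, 32.7 and 35.2 FPKM in Hep3B-KD libraries. It had the largest change of the list, -1.29 on the log2 scale (adjusted p = 4.43e-07). GRB2 did not pass the test (-0.01), while SOS1 (0.52) and SOS2 (0.45), the exchange factors that GRB2 brings to RAS, rose. PLCG1 (0.58), EPS8 (0.30) and CRKL (0.19) also rose, and NCK1 (-0.41), GAB2 (-0.33), PTPN11 (-0.30) and NCK2 (-0.27) fell.

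In the RAS-RAF-MEK-ERK list, 4 of 11 genes rose, 3 fell and 4 did not pass the test. NRAS measured 38.0, 39.1 and 38.1 FPKM in Hep3B-Con and 19.7, 17.9 and 19.2 FPKM in Hep3B-KD libraries, a log2 fold change of -1.02 (adjusted p = 3.02e-06). It was short of 2-fold after rescaling to equal sums (-0.99), quantile normalization (-0.94), with a pseudocount of 1 (-0.99) and without Hep3B-KD replicate 2 (-0.98). HRAS did not pass the test (0.025). Among the kinases of the cascade, MAP2K1 (-0.35) fell, and BRAF (0.58) and MAPK3 (0.29) rose.

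Among 16 genes of receptor endocytosis and degradation, 6 rose, 6 fell and 4 did not pass the test, and none changed by 2-fold. The largest changes were those of USP8, which removes ubiquitin from EGFR on endosomes (0.72, adjusted p = 0.000149), and of LRIG2 (0.64, adjusted p = 0.00139). Families in this list moved in both directions. Among the CBL ubiquitin ligases, which mark EGFR for degradation, CBL (-0.36) and CBLB (-0.25) fell and CBLC (0.45) rose. LRIG1 (-0.45), which promotes loss of ERBB receptors, fell, whereas its relatives LRIG2 and LRIG3 (0.19, a call kept under 1 of the 3 other scalings) rose. These families were picked after their values had been seen.

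All 10 inhibitors of RAS and ERK signalling passed the test, with 4 higher and 6 lower, where 59.9% of all genes tested passed it. PEBP1, one of the 6, kept its call under 1 of the 3 other scalings only. The lower ones included SPRY4 (6.56, 6.13 and 7.40 FPKM in Hep3B-Con, 2.45, 2.44 and 2.20 FPKM in Hep3B-KD libraries), a feedback inhibitor induced by ERK, at a log2 fold change of -1.46 (adjusted p = 1.45e-05). SPRY1, SPRY2, SPRED1 and SPRED2 fell by 0.34 to 0.38 on the log2 scale. The genes that rose were the RAS GTPase activators RASA1 (0.55) and NF1 (0.50) and the suppressors of cytokine signalling SOCS4 (0.60) and SOCS5 (0.64), so the list did not move in one direction.

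Of 9 tested genes known to be induced by ERK, 2 rose, 5 fell and 2 did not pass the test. The early-response transcription factor EGR1 measured 17.8, 14.6 and 14.8 FPKM in Hep3B-Con and 2.85, 2.26 and 3.17 FPKM in Hep3B-KD libraries, the largest change in any of the lists (-2.48, adjusted p = 1.14e-05). FOSL1, a subunit of AP-1, fell by 1.97 (adjusted p = 0.000223), from 50 to 69 reads in Hep3B-Con to 9 to 16 reads in Hep3B-KD libraries. IER3, an early-response gene, fell from 103 to 33.1 FPKM (-1.64, adjusted p = 5.05e-08), and the ETS factor ETV4 fell from 9.19 to 2.97 FPKM (-1.60, adjusted p = 1.40e-06). The remaining gene that fell was ETV5 (-0.26, a call lost under 1 of 3 other scalings). The ERK phosphatase DUSP6 did not pass the test (0.013), nor did DUSP5 (-0.13), and DUSP4 (0.60, lost after quantile normalization) and PHLDA1 (0.24) rose.

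**Figure D5:**
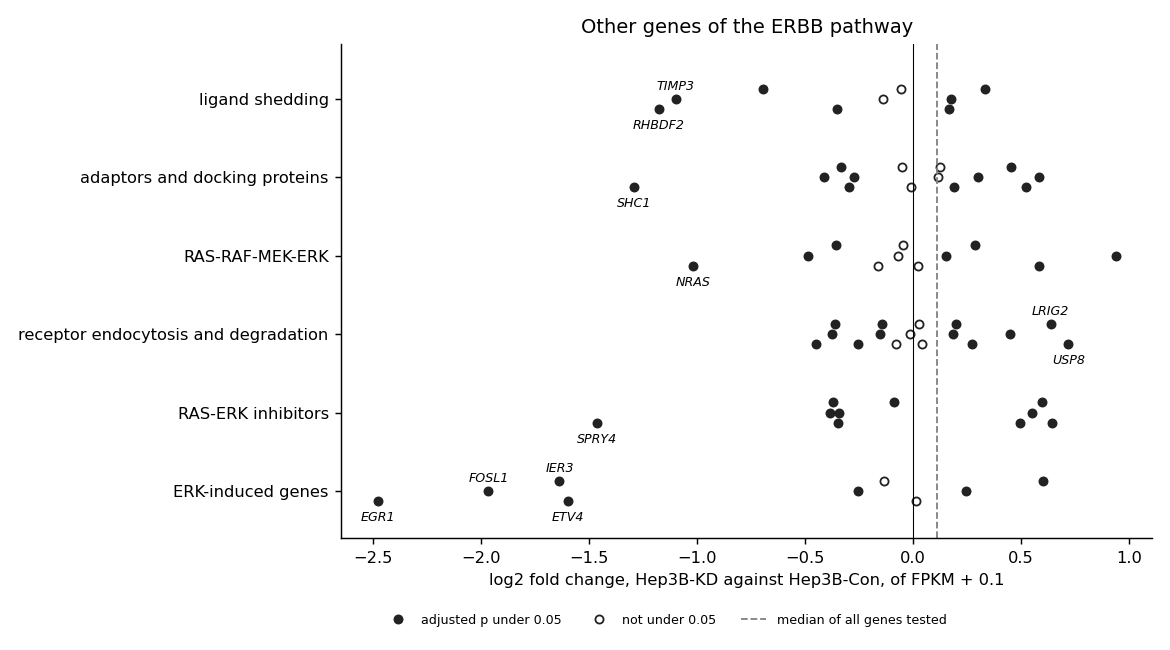
Log2 fold change (Hep3B-KD against Hep3B-Con, FPKM + 0.1) of the 69 tested genes of 6 pathway lists. Filled points passed an adjusted p of 0.05, open points did not, and the dashed line is the median of all genes tested. Genes lie on both sides of 0 in every list, and the 9 that changed by 2-fold or more all lie on the lower side. Across all genes tested, 5.89% were higher and 2.94% were lower by that much. The lists were chosen with earlier results of these data known.

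The genes whose values over the 6 libraries were most like those of EGFR, by the Euclidean distance between log2 values centred on each gene's own mean, were NBPF14 (distance 0.0476), SLK (0.0528) and WASF1 (0.0681), with log2 fold changes of 1.06 to 1.13. Those most like AREG were TRAM1 (0.0476), CAP1 (0.0944) and AC008038.1 (0.0947), with log2 fold changes of -2.02 to -1.97. With 6 libraries in 2 groups, this measure chiefly finds genes with a difference of the same size.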

How the data were processed

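Hep3B mRNA libraries (TruSeq kit, Illumina HiSeq) were analysed, 3 per group, with group and replicate read from each sample's title. The authors deposited 1 table of FPKM values for 29908 Ensembl genes with 1 column per library. The submitters' processing notes name Bowtie2 2.0.6, TopHat2 2.0.12 and the build GRCh37, without saying what each was used for. The counting and the annotation are not given in the sources used here. Multiplied by GENCODE release 29 exon lengths (an annotation of GRCh38) and library totals, all FPKM values came within 0.01 of whole reads, and these reads summed to the totals. Coordinates printed are those of GRCh38, taken by gene identifier from that annotation. The labels and the paper name different culture media, so none is given.

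Of these genes, 14221 averaged 0.5 FPKM or more over the 6 libraries and were tested on the log2(FPKM + 0.1) scale with limma 3.58.1 (eBayes with trend) in R 4.3.3 and Benjamini-Hochberg adjustment over all of them. Every row entered the fit, and of 382 rows with a repeated symbol the one with the highest mean carried the symbol. Rose and fell are used for an adjusted p under 0.05. A fold change on this scale understates the change of low genes. The fit was tested on simulated reads with known changes. At a dispersion (spread between libraries beyond counting error) of 0.01, it called 69.4% of log2 changes of 1 and 95.4% of those of 2. At a dispersion of 0.1 it called 4.71% and 68.5%. Unchanged genes that were called numbered 8 at a dispersion of 0.01 and 7 at 0.1. Far fewer genes were changed in these simulations than were called in the data. The dispersion of the data themselves was not estimated, so these shares do not say how often this fit finds a real change. The depth limits low genes, and read numbers cover counting error only.

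The members and lists were chosen with earlier results of these data known. Named genes were the 10 members, DAGLA, the other receptors and ligands, of each further list up to 4 genes past 2-fold or otherwise the 2 largest changes, and for EGFR and AREG the 3 genes most alike. Others are marked as picked by value. The alternatives were other filters (none, or a mean of 1 FPKM), pseudocounts of 1 and 0.01, rescaling to equal sums (TPM), centring, quantile normalization, no trend, leaving out each library in turn, a replicate block, and voom on the recovered reads. Replicate numbers did not pair the libraries. Some genes of the lists are counted but not reported here by name.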

Additional observations from a re-analysis of the deposited data

How the results depend on the processing

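Over 16 alternatives, EGFR, ERBB2, ERBB3, AREG, EREG and ERRFI1 kept their direction and an adjusted p under 0.05 in limma (highest 0.00113, for ERRFI1). EGFR ranged from 0.99 to 1.17 on the log2 scale, ERBB2 from -0.97 to -0.74, ERBB3 from 0.79 to 0.96, AREG from -2.10 to -1.91, EREG from -1.17 to -1.003 and ERRFI1 from -0.64 to -0.44. The number of members called was 6, or 7 after quantile normalization and without Hep3B-KD replicate 1, both through HBEGF, and 3 members were past 2-fold, or 2 under centring, which took EGFR below it. BTC turned to -0.084 after quantile normalization (adjusted p = 0.700). The count of all genes past 2-fold, 1256, was 503 with a pseudocount of 1, by construction, since that pseudocount shrinks the folds of low genes, and 50.7% of these were higher against 66.7% of the 1256. Leaving out 1 library at a time gave 6 to 7 members called, 3 past 2-fold in each fit, 7801 to 7915 genes called (8521 with all libraries), 1206 to 1264 past 2-fold and 48 to 50 pathway genes called (53 with all libraries).

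Libraries with the same replicate number shared no deviation (correlations of -0.013, -0.066 and -0.0011 across genes), so the numbers name libraries only. With the replicate block, 6 members, 51 pathway genes and 7919 genes were called, against 8521 without it. Depth limited TGFA and NRG1, with at most 7 reads in a library.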
